A study of Mus musculus with 14 samples.

Results

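Transcripts of 8 genes for cytosolic sulfotransferases (Sult1a1, Sult1b1, Sult1c2, Sult1d1, Sult2a1, Sult2a8, Sult3a1 and Sult5a1) were followed in liver tumours of the mouse. The members were taken by their gene symbol. All 8 had an entry among the 16821 genes of the first of 2 gene tables, and 6 had one among the 16095 genes of the second, in which Sult3a1 and Sult5a1 had no entry. Total RNA was sequenced from hepatocellular carcinomas driven by MYC, each carrying Cas9 and 1 guide RNA. The first table covered 4 tumours with a guide against GFP (sgGFP, the control), 3 with a guide against Cul3 (sgCul3) and 3 with a guide against Keap1 (sgKeap1). The second covered 2 tumours (sgNrf2, A and B) whose guide was aimed at NRF2's ETGE motif, beside control libraries A and B, said in the labels to repeat sgGFP tumours 2 and 4. All groups share the MYC transgene, and the labels call the cells hepatocytes. KEAP1 holds the transcription factor NRF2 by its ETGE motif and passes it to the CUL3 ubiquitin ligase, and loss of any of these contacts is known to raise NRF2 activity. Which cells carried an edit, the age and sex of the mice, and whether the tumours of a group came from separate animals are not stated in the labels, so p-values measure the spread between these samples, which may be technical.

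Cytosolic sulfotransferases move a sulfonate group from the cofactor PAPS to hydroxyl or amine groups of hormones, bile acids, drugs and dietary phenols, which usually makes them easier to excrete. PAPS is made from ATP and sulfate by the PAPS synthases, and the sulfate enters through membrane carriers or comes from the oxidation of cysteine. The liver is a main site of these reactions, and in the mouse several sulfotransferase genes, Sult2a1 and Sult3a1 among them, are known for higher levels in females.

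Sequence bears on these values first through near-identical copies, because a read that fits more than 1 gene cannot be assigned to either. Sult2a1 lies on GRCm38 chromosome 7 from 13796246 to 13837409 (minus strand, GENCODE M21) in a row of Sult2a genes, with Sult2a2 16.6 kb away and Sult2a8 573 kb away, at 14410686 to 14446769 (minus strand). The coding sequence of Sult2a1 has 858 bases and was 94.9% identical to that of Sult2a5, 88.8% to that of Sult2a2 over the 579 bases that could be aligned, and 69.5% to that of Sult2a8. Of the 971 stretches of 50 bases in the Sult2a1 transcript, 33.2% also occurred in a transcript of another Sult2a gene, most of them in Sult2a2 (29.5%). None of the 3321 stretches of Sult2a8 occurred in another of the genes compared, and the same held for the other members. Coding bases 60 to 119, counted from the A of the start codon, show the contrast. They are the first run of 60 gap-free bases at which Sult2a8 differs from Sult2a1 by the median number of bases (20). Capitals in Sult2a1 mark bases at which any of the other 3 differs, and capitals in the others mark their differences from Sult2a1.
Sult2a1: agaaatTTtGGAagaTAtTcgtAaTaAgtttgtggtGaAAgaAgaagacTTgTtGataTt
Sult2a2: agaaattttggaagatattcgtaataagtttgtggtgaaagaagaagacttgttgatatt
Sult2a5: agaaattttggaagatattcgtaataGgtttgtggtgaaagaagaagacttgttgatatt
Sult2a8: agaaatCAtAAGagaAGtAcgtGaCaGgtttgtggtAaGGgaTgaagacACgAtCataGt
Sult2a2 was identical to Sult2a1 over this run, Sult2a5 differed at 1 base and Sult2a8 at 20, so reads from this run would not tell Sult2a1 from Sult2a2. Values of Sult2a1, Sult2a2 and Sult2a5 are therefore uncertain as to the copy.

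Promoter windows of 300 bases (250 before and 50 after the start site) were taken from RefSeq on GRCm38.p6. Of the 8 members 7 matched, with 9 windows, and Sult2a1 had no entry. The 3 tested members with an entry whose log2 levels varied most over the first table are shown up to the base before the start, on the strand of the gene, with capitals at the motifs found. Sult2a8 has 2 windows, of which the second lies at the annotated 5′ end of its gene and the first within the gene.
Sult1a1, chr7:126676419-126676668, minus strand: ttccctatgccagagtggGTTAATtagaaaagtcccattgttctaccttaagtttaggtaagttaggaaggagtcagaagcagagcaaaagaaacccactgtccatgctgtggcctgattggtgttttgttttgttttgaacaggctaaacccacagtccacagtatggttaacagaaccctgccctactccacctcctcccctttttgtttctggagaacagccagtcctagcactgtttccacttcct
Sult1d1, chr5:87569007-87569256, minus strand: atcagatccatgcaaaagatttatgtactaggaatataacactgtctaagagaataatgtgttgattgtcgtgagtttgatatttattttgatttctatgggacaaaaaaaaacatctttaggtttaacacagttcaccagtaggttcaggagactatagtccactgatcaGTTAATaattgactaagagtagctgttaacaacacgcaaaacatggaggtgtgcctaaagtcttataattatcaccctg
Sult2a8, chr7:14438552-14438801, minus strand: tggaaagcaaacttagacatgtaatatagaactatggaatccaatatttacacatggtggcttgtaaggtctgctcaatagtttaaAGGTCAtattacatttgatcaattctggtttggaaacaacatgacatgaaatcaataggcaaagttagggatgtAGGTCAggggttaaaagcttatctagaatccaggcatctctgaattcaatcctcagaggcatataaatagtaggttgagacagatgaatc
Sult2a8, chr7:14446588-14446837, minus strand: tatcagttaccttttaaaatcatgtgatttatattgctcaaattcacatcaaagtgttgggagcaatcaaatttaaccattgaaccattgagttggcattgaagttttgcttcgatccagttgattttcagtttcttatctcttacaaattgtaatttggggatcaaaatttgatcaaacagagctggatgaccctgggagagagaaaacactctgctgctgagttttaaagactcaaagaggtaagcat
The core of the antioxidant response element, TGACNNNGC, to which NRF2 binds, was searched on both strands and was in 0 of the 9 windows of the members and in 12.4% of all 32851 windows. The E-box CACGTG, a MYC site, was likewise in 0 of the 9 and in 7.15% of all. The nuclear receptor half-site AGGTCA was in windows of Sult1b1 and Sult2a8 (2 of the 9 windows, and 16.3% of all). In Sult2a8 it starts 164 and 90 bases before the start inside the gene, and the window at the 5′ end of the gene held none of the 4 motifs. The HNF1 half-site GTTAAT was in the windows of Sult1a1, 232 bases before the start, and Sult1d1, 79 bases before it (7.1% of all). No match overlapped another. These are matches of letters within the window and no measure of binding.

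Reads on genes numbered 6333025 to 12008223 per library of the first table, and 17819333 to 20848578 per library of the second. Levels are reads scaled by the authors with DESeq size factors, called scaled reads here, and they compare within a table only. Albumin and other hepatocyte markers were present in all 14 libraries, with summed levels of 8 markers (Alb, Apoa1, Apob, Ttr, Hnf4a, Serpina1a, Tat and Cps1) from 98009 to 1174780 scaled reads in the first table and from 301461 to 685558 in the second. Of 10 NRF2 target genes, 8 rose in sgCul3, 9 in sgKeap1 and 6 in sgNrf2 by the limma test described with the comparisons. Keap1 had 287 to 462 scaled reads in sgKeap1 against 582 to 721 in sgGFP, Cul3 had 163 to 676 in sgCul3 against 935 to 1372, and Nfe2l2, which encodes NRF2, had 1486 to 1615 in sgNrf2 against 1397 to 1844 in the controls. Of these 3 changes that of Keap1 passed (log2 fold change -0.77, adjusted p = 0.048, against 0.051 for Cul3 in sgCul3 and 0.89 for Nfe2l2), and gene counts do not show the edits themselves.

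One library stood apart. In sgKeap1 tumour 2 the 10 most abundant genes held 24.5% of the reads, against 8.10% to 18.0% elsewhere in its table, and Alb reached 1046670 scaled reads against 27498 to 162273. That library had the highest level of 20.8% of the 13045 genes that passed the filter of the tests, and of 3 of the 6 sulfotransferases, 10 of 13 genes known to be female-biased in mouse liver, 5 of 11 known to be male-biased, 4 of 8 hepatocyte markers and 5 of 6 stellate cell and fibroblast markers among them. Some of these genes pass only because that library raises their mean. Filtering on the other 9 libraries, a choice made after the data were seen, left 7 of 10 female-biased and 4 of 10 male-biased genes highest there. The share of all 12950 genes was then 19.98%, and the counts of the sulfotransferases and of both marker lists did not change. Differences in sgKeap1 that rest on sgKeap1 tumour 2 are given with and without it. The sgGFP tumours also differed among themselves: Tat, a hepatocyte enzyme, had 39.8 and 58.3 scaled reads in tumours 1 and 2 and 7351 and 8397 in tumours 3 and 4, and the repeats of tumours 2 and 4 differed the same way, at 134 in control A and 18001 in control B.

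Per length, 4 of the 8 genes made up nearly all sulfotransferase transcripts of the sgGFP tumours. On the RPKM scale (reads per kilobase of exon, relative to all reads on genes), Sult1a1 stood at 147 ± 104 (SD, n = 4), Sult1d1 at 81.7 ± 49.3, Sult2a1 at 78.8 ± 40.9 and Sult1c2 at 27.4 ± 13.1. Far below came Sult1b1 at 1.61 ± 0.614 and Sult2a8 at 0.482 ± 0.232, and Sult5a1 and Sult3a1 were close to 0, at 0.0339 ± 0.0174 and 0.0185 ± 0.037. Within each of the 4 tumours Sult1a1 lay above Sult1d1, and Sult2a1 above Sult1c2. The place of Sult2a1 relative to Sult1a1 and Sult1d1 changed between tumours. Over the tumours the range of Sult1c2 (10.3 to 42.2) overlapped that of Sult2a1 (18.3 to 108), and Sult1b1 (0.770 to 2.24) lay below all 4 abundant genes. The range of Sult2a8 (0.284 to 0.811) reached into that of Sult1b1, but Sult2a8 was the lower of these 2 genes in each sgGFP tumour. Among all 16769 genes with a length, the sgGFP mean of Sult1a1 ranked 336th from the top and that of Sult1c2 ranked 1962nd.

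The make-up by length differed between libraries. Sult1a1, Sult1c2, Sult1d1 and Sult2a1 together held 98.7% to 99.6% of the summed level of the members in the sgGFP tumours, 95.9% to 98.8% in sgCul3, 96.1% and 96.2% in sgNrf2, and 76.6% in sgKeap1 tumour 2, where Sult2a8 held 21.6%. Sult1c2 held 5.64% to 11.2% in the sgGFP tumours and was the leading member in sgCul3 tumour 1 (35.3%), sgNrf2 A (39.0%) and sgNrf2 B (49.5%). Sult1a1 led in 4 of the 10 libraries of the first table and Sult1d1 in 4 others. The summed level of the members was 94.7 to 499 in sgGFP, 84.4 to 177 in sgCul3 and 148 to 548 in sgKeap1, and 89.9 and 82.7 in sgNrf2 against 244 and 687 in the controls.

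**Figure D1:**
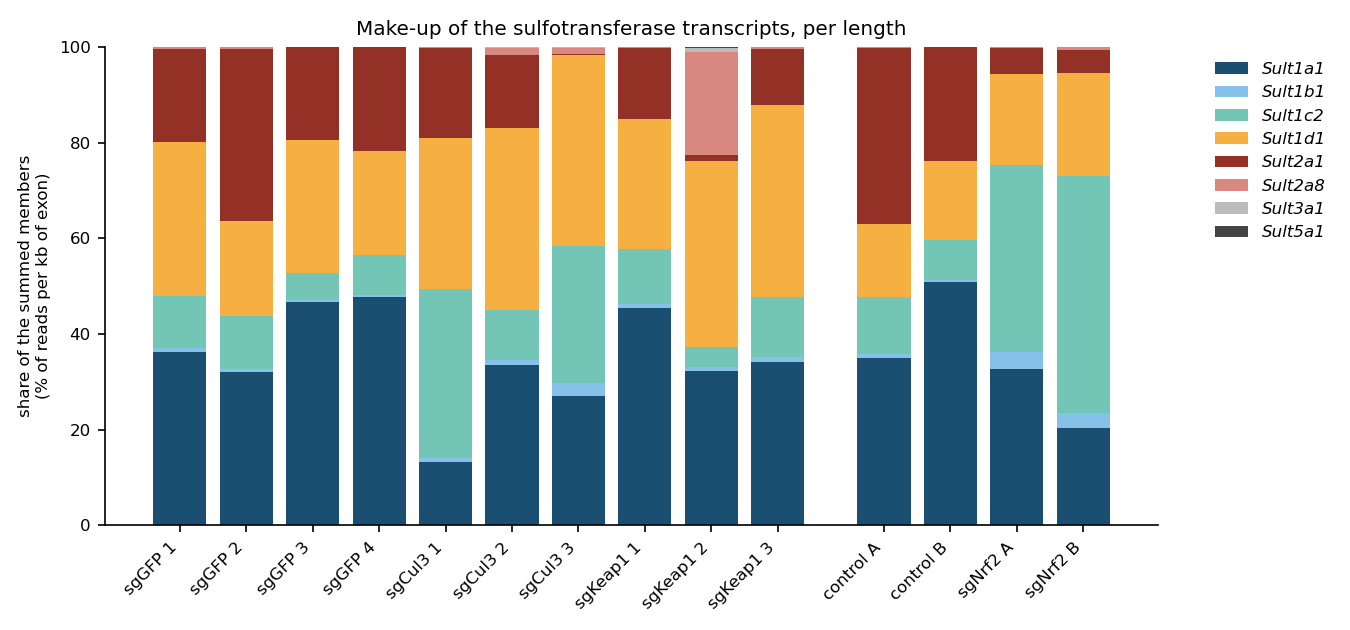
Share of each gene in the summed level of the 8 sulfotransferases (vertical axis, percent of reads per kilobase of exon) in each of the 14 libraries (horizontal axis, the 10 of the first table left of the gap). Sult2a8 is a visible share in sgKeap1 tumour 2 (21.6%), and Sult1c2 is the largest share in both sgNrf2 tumours (39.0% and 49.5%).

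Group differences were tested with limma (log2 of the deposited value plus 1, genes averaging 10 or more, Benjamini-Hochberg adjustment over all genes tested, called under 0.05). Of the 8 members 6 passed this filter in each table, and Sult3a1 and Sult5a1 did not, with means under 10 in the first table and no entry in the second. Against sgGFP, 0 of the 6 were called in sgCul3 (2.2% of all genes tested were called), 0 in sgKeap1 (7.82%) and 0 with both guides pooled (7.56%), and 0 were called between sgKeap1 and sgCul3 (0.0613%). At an unadjusted p under 0.05 the counts were 2, 0, 1 and 1, beside 17.2%, 29.2%, 27% and 10.1% of all genes tested. edgeR called 0, 1, 0 and 0 and DESeq2 called 0 in each, giving no adjusted p for Sult2a8 in sgKeap1. In sgNrf2 1 of the 6 was called, Sult2a1, which was lower (2.51% of all genes tested were called lower and 4.41% in either direction). edgeR called the same gene, and DESeq2 called 3, Sult1a1, Sult1d1 and Sult2a1, which are also the 3 under an unadjusted p of 0.05 by limma. The comparisons of sgCul3 and sgKeap1 share the same sgGFP libraries.

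The median log2 fold change of the 6 tested members was -0.30 in sgCul3, 0.30 in sgKeap1 and -1.32 in sgNrf2, against 0.01, -0.01 and 0.04 over all genes tested. Without sgKeap1 tumour 2 the median of the members in sgKeap1 was -0.19. In the sgNrf2 comparison 266 genes were called higher and 351 lower, 43.1% higher. With the libraries brought to equal totals these counts were 874 and 362, 70.7% higher, and the median of all genes moved to 0.34. Relative to either median Sult2a1, Sult1a1 and Sult1d1 lay below it.

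**Figure D2:**
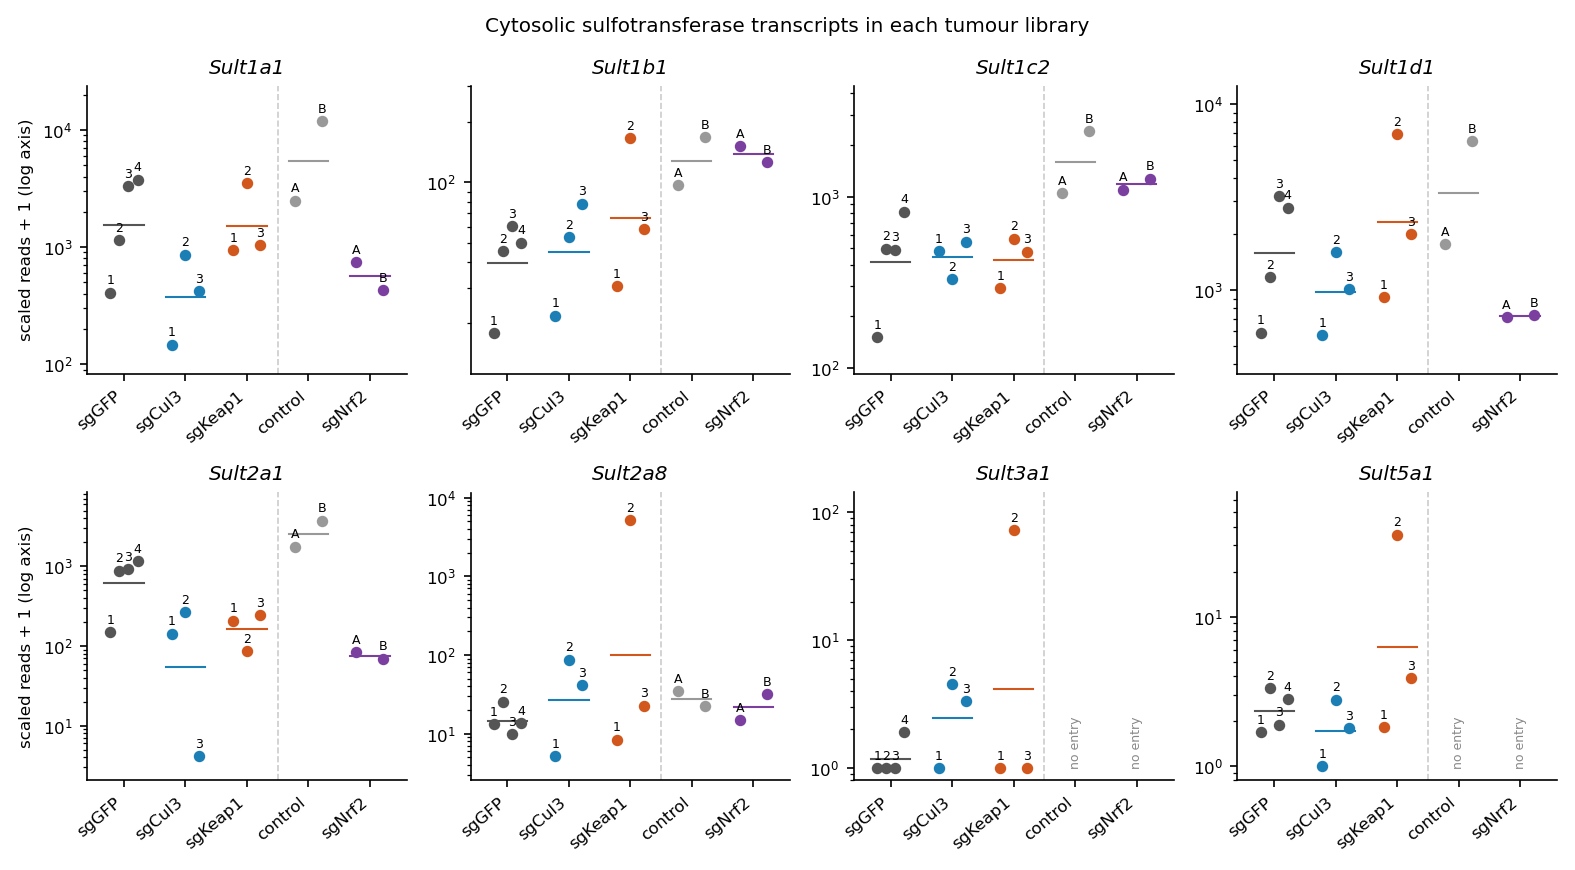
Scaled reads plus 1 (vertical axis, log scale, 1 panel per gene) of the 8 sulfotransferases in each library, with groups on the horizontal axis, tumour numbers or letters above the points and bars at the geometric mean. The groups right of the dashed line come from the second table, which was scaled separately. Sult2a1 lies lower in sgNrf2 (81.8 and 68.2 scaled reads) than in the controls (1761 and 3749), and Sult2a8, Sult3a1 and Sult5a1 are highest in sgKeap1 tumour 2.

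Sult1a1 (ENSMUSG00000030711.15, GRCm38 chromosome 7, 126672865 to 126676432, minus strand) encodes the main phenol sulfotransferase of the liver. The sgGFP tumours, in the order 1 to 4, had 408, 1152, 3312 and 3766 scaled reads, the sgCul3 tumours (1 to 3) 146, 862 and 419, and the sgKeap1 tumours (1 to 3) 937, 3515 and 1042. The 3 sgCul3 tumours lay below sgGFP tumours 2 to 4 but overlapped with tumour 1, and the sgKeap1 tumours lay inside the sgGFP range. The log2 fold change was -2.04 ± 0.81 (SE) in sgCul3 (limma adjusted p = 0.23) and -0.05 ± 0.81 in sgKeap1 (adjusted p = 0.98), so neither difference passed. Between sgKeap1 and sgCul3 the 2 groups did not overlap, with sgKeap1 higher by 2.0 ± 0.87 on the log2 scale, but this did not pass either (adjusted p = 0.48). Of all genes tested, 7.52% were higher without overlap in this comparison.

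In the second table Sult1a1 had 2481 (control A) and 11879 (control B) scaled reads beside 747 (sgNrf2 A) and 427 (sgNrf2 B). Both sgNrf2 tumours were below both controls, and the controls differed 4.79-fold from each other. On the RPKM scale sgNrf2 A and B stood at 29.3 and 16.8, beside 34.4 in sgGFP tumour 1, which the controls do not repeat. The log2 fold change was -3.26 ± 0.78, with a limma adjusted p of 0.078 and a DESeq2 adjusted p of 2.37e-06. Without control A, the lower of the pair, it was -4.39, in a fit with only control B as control. Sult1a1, Sult1d1 and Sult2a1 were lower in sgNrf2 without overlap, 3 of the 6 members, beside 30.7% of all genes tested.

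Sult1d1 (ENSMUSG00000029273.10, chromosome 5, 87554645 to 87569027, minus strand) encodes a sulfotransferase that acts on catecholamines such as dopamine and on phenols. Its gene lies 16.4 kb from Sult1b1 and 6.94 kb from Sult1e1. Its sgGFP levels, in tumour order, were 589.7, 1168, 3209 and 2773 scaled reads, with 572, 1599 and 1012 in sgCul3, and 918, 6922 and 1996 in sgKeap1. The pattern followed that of Sult1a1 in being low in sgGFP tumours 1 and 2 and high in tumours 3 and 4, and sgKeap1 tumour 2 was 2.16-fold above the next library. The log2 fold changes were -0.69 ± 0.71 in sgCul3 (limma adjusted p = 0.67) and 0.57 ± 0.71 in sgKeap1 (adjusted p = 0.62), and the latter turned to -0.22 without sgKeap1 tumour 2 (adjusted p = 0.89).

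In the second table Sult1d1 had 1767 (control A) and 6315 (control B) scaled reads beside 716 (sgNrf2 A) and 731 (sgNrf2 B). The sgNrf2 tumours were nearly alike and both below the controls, which differed 3.57-fold from each other. On the RPKM scale sgNrf2 A and B stood at 17.2 and 17.7, beside 30.4 in sgGFP tumour 1, which the controls do not repeat. The log2 fold change of -2.21 ± 0.61 did not pass with limma (adjusted p = 0.096) and passed with DESeq2 (adjusted p = 0.000225). Without control A, in a fit with only control B as control, it was -3.12 in limma.

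Sult1c2 (ENSMUSG00000023122.6, chromosome 17, 53829637 to 53846339, minus strand), of the phenol sulfotransferase subfamily 1C, varied less between libraries than the other 3 abundant members (SD of its log2 profile 0.66, against 1.14 for Sult1d1, 1.52 for Sult1a1 and 2.26 for Sult2a1). It had 150.5, 495, 489.8 and 815 scaled reads in sgGFP, 481, 328 and 545 in sgCul3, and 292, 566 and 475 in sgKeap1. All 6 guide tumours lay inside the sgGFP range, and log2 fold changes were 0.09 ± 0.48 and 0.04 ± 0.48 (limma adjusted p = 0.95 and 0.97). In the second table it had 1048 and 2402 scaled reads in the controls and 1094 and 1271 in sgNrf2, within the control range, with a log2 fold change of -0.43 ± 0.42 (adjusted p = 0.52).

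Sult1b1 (ENSMUSG00000029269.11, chromosome 5, 87513339 to 87538195, minus strand), which acts on thyroid hormones and phenols, was low in all groups. It had 16.9 to 59.3 scaled reads in sgGFP, 20.7 to 77.4 in sgCul3, and 29.4, 164 and 57.7 in sgKeap1 tumours 1 to 3. In the second table it had 96.0 and 167 in the controls and 151 and 125 in sgNrf2. Groups overlapped in each comparison with a control. Its log2 fold change in sgKeap1 was 0.73 ± 0.63 (limma adjusted p = 0.46) and 0.09 without tumour 2, and in sgNrf2 it was 0.11 ± 0.40 (adjusted p = 0.87).

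Sult2a1 (ENSMUSG00000078798.4) encodes the enzyme that sulfates bile acids and steroids such as dehydroepiandrosterone. In the second table it had 1761 (control A) and 3749 (control B) scaled reads, but 81.8 (sgNrf2 A) and 68.2 (sgNrf2 B) with the guide. Both sgNrf2 tumours were far below both controls, by 35.5-fold over the pooled reads (95% interval 30.6 to 41.5, counting error only). Per the labels these controls repeat sgGFP tumours 2 and 4, so sgGFP tumours 1 and 3 are not among them. On the RPKM scale Sult2a1 stood at 18.3 in sgGFP tumour 1 and 93.2 to 108 in tumours 2 to 4, beside 4.75 and 3.98 in sgNrf2. The size of the fold therefore depends on which control tumours were repeated. The log2 fold change was -5.09 ± 0.42, with a limma adjusted p of 0.024. Without sgNrf2 A it was -5.22 and did not pass (adjusted p = 0.080), a setting in which 3 genes in all were called.

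The neighbouring copies, whose sequences are near those of Sult2a1, were lower in the same tumours. Sult2a2 had 99.2 (control A) and 35.4 (control B) scaled reads and 1.62 and 1.75 in the sgNrf2 tumours (log2 fold change -4.49 ± 0.72, limma adjusted p = 0.047), and Sult2a5 had 73.3 and 35.4 against 1.62 and 0 (-5.01 ± 0.81, adjusted p = 0.047). Both calls were lost without either sgNrf2 tumour (limma adjusted p from 0.146 to 0.224), that of Sult2a5 also without control B (0.0569), and with edgeR the adjusted p was 0.0499 for Sult2a2 and 0.0563 for Sult2a5. For Sult2a5, with 96 reads in the controls and 2 in sgNrf2, the ratio was 66.5 (95% counting interval 17.9 to 557). Sult2a4 (61 reads against 2) and Sult2a6 (62 against 1) had ratios of 42.2 (11.2 to 357) and 85.9 (14.8 to 3445). Of 13 other cytosolic sulfotransferase genes listed, 9 had an entry in the second table, 5 were tested, and Sult2a2 and Sult2a5 passed, both lower.

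With reads of Sult2a1 to Sult2a7 summed, a setting added after the data were seen, the log2 fold change in sgNrf2 was -5.11 (adjusted p = 0.024), and Sult2a1 held 86.0% and 96.8% of the sum in the controls and 90.2% and 95.1% in sgNrf2. The second table lists reads without a unique alignment apart from genes. Per read on genes they came to 1.64 (control A), 1.74 (control B), 0.944 (sgNrf2 A) and 1.01 (sgNrf2 B), and their part in the values of the Sult2a copies was not tested.

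In the first table Sult2a1 stood at 147, 876, 926 and 1156 scaled reads in the sgGFP tumours by number, 142, 266 and 3.13 in sgCul3, and 207, 85.1 and 244 in sgKeap1. All 6 guide tumours were below sgGFP tumours 2 to 4, and sgGFP tumour 1 lay among them. In sgCul3 tumour 3 Sult2a1 had 4 reads. The log2 fold changes were -3.39 ± 1.18 in sgCul3 (limma adjusted p = 0.17), -1.89 ± 1.18 in sgKeap1 (adjusted p = 0.30) and -2.64 ± 0.99 for both guides together (adjusted p = 0.12), none of which passed. Without sgKeap1 tumour 2 the value in sgKeap1 was -1.43 (adjusted p = 0.59). Without sgCul3 tumour 3 the value in sgCul3 was -1.64 (adjusted p = 0.26). With both guides together Sult2a2 was called lower (-2.18 ± 0.57, adjusted p = 0.042), on 1 to 12 reads per sgKeap1 tumour and 0 to 4 per sgCul3 tumour, and the call was lost without any of 8 single libraries (adjusted p up to 0.109).

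Markers of other cell types moved in the same comparisons. All 5 erythroid markers were called lower in sgNrf2 (all 5 calls lost without sgNrf2 A, 4 without control B and 4 without sgNrf2 B, with adjusted p up to 0.197), with summed levels of 749 and 1569 scaled reads against 14086 and 14489 in the controls. In the first table the sums were 4028 to 11367 in sgGFP, 315 to 9003 in sgCul3 and 1606 to 1759 in sgKeap1, and 3 of 5 were called lower in sgKeap1 and 2 of 5 in sgCul3. Of 5 neutrophil markers tested S100a8 and S100a9 were called lower in sgNrf2 and lost without control B or sgNrf2 A (S100a9 also without control A and by edgeR, adjusted p up to 0.0885), with sums of 83.4 and 427 against 4436 and 9567. In sgKeap1 Mpo, Elane and Ngp were called lower, with sums of 116 to 176 against 622 to 4452 in sgGFP, and in sgCul3 (107 to 2503) 0 of 5 were called by limma (3 at an unadjusted p under 0.05) and by edgeR, and 3 by DESeq2. Of 6 macrophage and Kupffer cell markers Clec4f and Marco were called lower in sgNrf2 (log2 fold changes -5.52 and -5.58, limma adjusted p = 0.039 and 0.036), while the sum of the 6 was 2921 and 3221 against 897 and 2809. Of 5 endothelial markers 4 had an unadjusted p under 0.05 by limma in sgNrf2, beside 30.3% of all genes tested. Pecam1 alone was called by limma, as higher (1.4, adjusted p = 0.044), with sums of the 5 at 2212 and 2505 against 1148 and 1245. These 3 calls were lost without control B or either sgNrf2 tumour, that of Pecam1 also with the block (adjusted p up to 0.147, 0.158 and 0.366 over the alternatives). DESeq2 called 2 of the 5 endothelial markers higher and 1 lower in sgNrf2. In sgCul3 the endothelial marker Lyve1 was called lower by limma and not by edgeR. Of 6 cholangiocyte markers limma called Spp1 higher in sgCul3, Krt19 and Spp1 higher in sgKeap1 and 0 in sgNrf2. Their sums were 283 to 486 in sgGFP, 411 to 1398 in sgCul3 and 651 to 1852 in sgKeap1. Of 4 intestinal markers Vil1 was called higher in sgKeap1 and Lgals4 lower in sgNrf2. In these 3 comparisons 0 stellate cell and fibroblast markers were called by limma. The part of these cell markers in the Sult2a1 result was not tested. In bulk tumour RNA fewer cells of a type and less RNA per cell cannot be told apart. Of the 8 hepatocyte markers 0 were called by limma in sgNrf2 (2 at an unadjusted p under 0.05, beside 30.3% of all genes tested), 0 by edgeR and 2 by DESeq2, Apoa1 and Cps1, both lower.

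**Figure D3:**
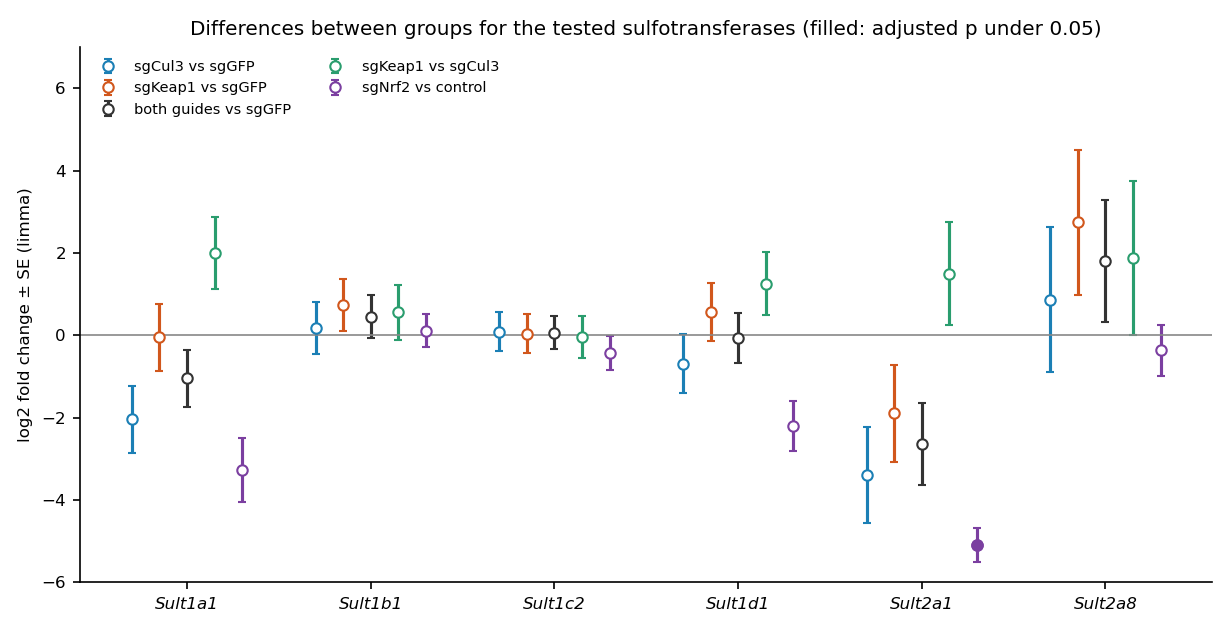
Log2 fold change with its standard error (vertical axis, limma) of the 6 tested sulfotransferases (horizontal axis) in 5 comparisons, filled where the adjusted p is under 0.05. The 1 filled point is Sult2a1 in sgNrf2 at -5.09, and the wide bars of Sult2a8 in the first table have standard errors of 1.48 to 1.87.

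Sult2a8 (ENSMUSG00000030378.14), which is known to sulfate bile acids in mouse liver, was low in all libraries but 1. It had 12.1, 24.5, 8.86 and 12.5 scaled reads in sgGFP, 4.14, 86.0 and 40.7 in sgCul3, and 7.36, 5141 and 21.6 in sgKeap1. sgKeap1 tumour 2, with 2536 reads, was 59.8-fold above the next library, sgCul3 tumour 2, while sgKeap1 tumour 3 lay within the sgGFP range and tumour 1 just below it. The log2 fold change in sgKeap1 was 2.74 ± 1.75 (limma adjusted p = 0.32). Without tumour 2 it was -0.07 (adjusted p = 0.98), and edgeR with it gave 6.87 (adjusted p = 0.046). In the second table Sult2a8 had 33.4 and 21.5 scaled reads in the controls and 13.8 and 30.6 in sgNrf2, overlapping groups (log2 fold change -0.37 ± 0.62, adjusted p = 0.72).

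Sult3a1 (ENSMUSG00000069668.3, chromosome 10, 33857721 to 33879532, plus strand) encodes an amine sulfotransferase. It had 35 reads in sgKeap1 tumour 2 (95% counting interval 24.4 to 48.7), 4 and 3 in sgCul3 tumours 2 and 3, 1 in sgGFP tumour 4 and 0 in 6 further libraries. Sult5a1 (ENSMUSG00000000739.13, chromosome 8, 123140192 to 123158315, minus strand) had 17 reads in sgKeap1 tumour 2 (9.90 to 27.2) and 0 to 3 in each of the others. For both genes sgKeap1 tumour 2 was the highest library, and the others were at or near 0. At 0 reads the upper limit, set at 3 reads, was 0.250 to 0.474 CPM (counts relative to all reads on genes) over these libraries. With no filter on low values limma gave Sult3a1 a log2 fold change of 1.6 ± 1.02 in sgKeap1 (adjusted p = 0.34) and Sult5a1 one of 1.25 ± 0.71 (adjusted p = 0.28). Without tumour 2 these were -0.13 ± 0.44 (adjusted p = 0.90) and 0.15 ± 0.42 (adjusted p = 0.89).

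Beside these 3 genes, sgKeap1 tumour 2 had high levels of several other liver genes. Among genes that passed the filter, 5 of 13 known as female-biased in mouse liver were more than 5-fold above the next library there, with 1 of 11 known as male-biased (Slco1a1), 1 of 8 hepatocyte markers (Alb) and 1 of the 6 sulfotransferases (Sult2a8), against 0.583% of all. Some of these passed the filter only through this library. With the filter set on the other 9 libraries, a choice made after the data were seen, the counts were 2 of 10 female-biased genes, 0 of 10 male-biased genes, Alb again and Sult2a8 again, against 0.378% of all. A1bg, a plasma protein gene, had 397 scaled reads there and 0 to 1.77 elsewhere, and Slc22a26, an organic anion transporter, had 1429 against 0 to 32.8. Slco1a1, an organic anion transporter of the male-biased list, had 385 there and 0 to 7.09 elsewhere, and Esr1, the estrogen receptor, had 239 against 1.38 to 31.0. Cyp3a16, a cytochrome P450 of the female-biased list, had 0 there and 1.38 to 44.5 elsewhere, so that list did not move as one. Sult2a1 went the other way too, with 85.1 scaled reads in sgKeap1 tumour 2, the second lowest of the 10 libraries. Xist, the transcript of the inactive X chromosome, had 3087 scaled reads in that tumour. Over the groups it had 6235 to 11476 in sgGFP, 2856 to 5290 in sgCul3 and 3087 to 5459 in sgKeap1, and 9423 and 10924 in sgNrf2 against 18199 and 25068 in the controls, lower than the controls without overlap in each. It was called lower in sgKeap1 (log2 fold change -1.13, limma adjusted p = 0.045) and with both guides (-1.14, adjusted p = 0.023). The first call was lost with the block, by edgeR and without sgGFP tumour 2, 3 or 4 or any 1 sgKeap1 tumour, and the second without sgGFP tumour 2, 3 or 4 (adjusted p up to 0.166 and 0.0719 over the alternatives). The Y-linked genes Ddx3y, Eif2s3y, Kdm5d and Uty had no entry.

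**Figure D4:**
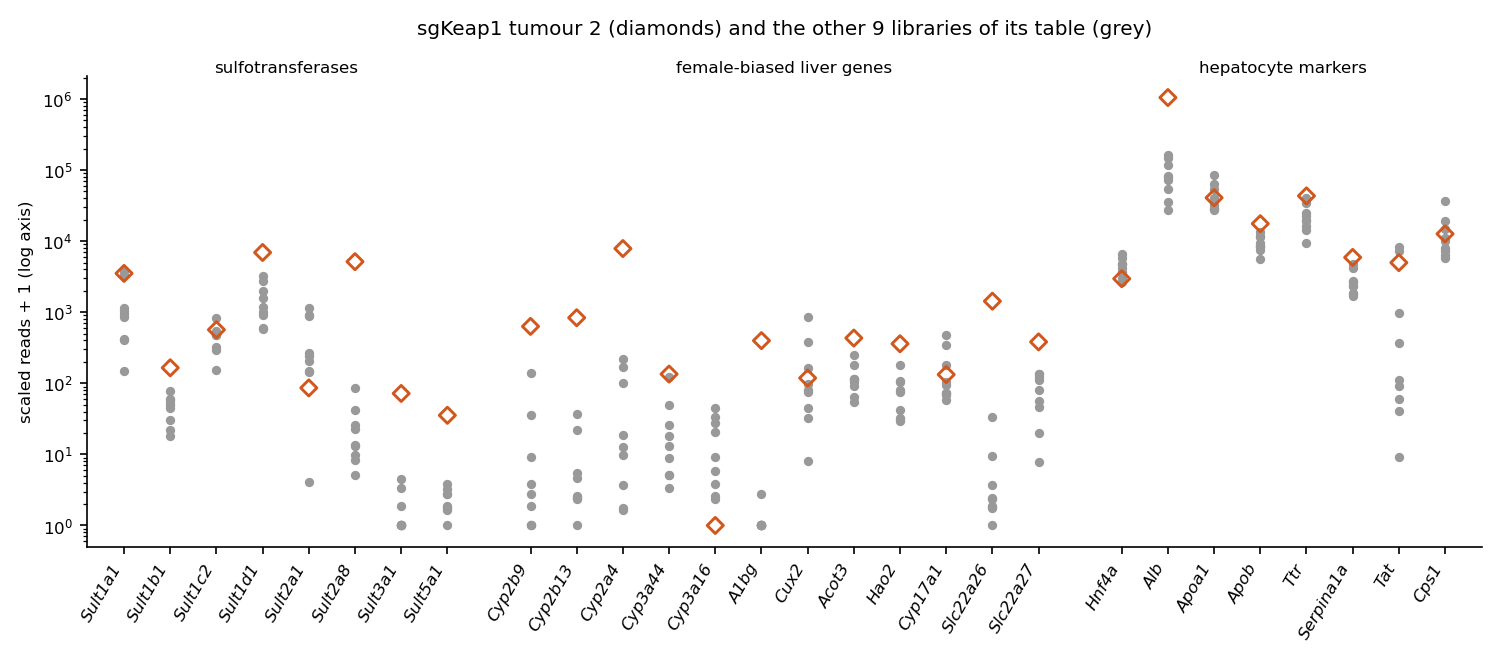
Scaled reads plus 1 (vertical axis, log scale) in sgKeap1 tumour 2 (open diamonds) and the other 9 libraries of the first table (grey points) for the 8 sulfotransferases, 12 of the 13 female-biased liver genes and 8 hepatocyte markers (horizontal axis). Sult2a8, Sult3a1 and Sult5a1 stand above all grey points there, as do A1bg and Slc22a26, and Sult2a1 and Cyp3a16 lie low.

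Profiles of other genes over the 10 libraries of the first table were set beside those of the members, by the root mean square difference of log2 values centred on each gene's mean. Nearest to Sult1a1 were Aldh1l1 (0.50) and Prodh (0.52), enzymes of folate and proline metabolism. Nearest to Sult1d1 were Amy1 (0.33) and Sec14l2 (0.36), to Sult1b1 Ptprd (0.29) and Kmo (0.35), and to Sult1c2 Cldn14 (0.28) and Ttc23 (0.34). Nearest to Sult2a1 were the haemoglobin genes Hba-a1 (0.95) and Hbb-bs (1.06). The measure is not scaled to the spread of a gene, and the profile SD was 2.26 for Sult2a1 and 0.66 for Sult1c2. These differences therefore do not compare closeness between members. Nearest to Sult2a8 were Slc22a26 (0.74) and Cyp2a22 (0.91).

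Of 6 genes that supply the cofactor or clear its product, 0 were called by limma in each of the 5 comparisons. edgeR likewise called 0 in each, and DESeq2 called 0 in the first table and 3 in sgNrf2, Papss1 higher and Papss2 and the PAPS carrier Slc35b3 lower. The unadjusted counts were 0 in sgCul3, 1 in sgKeap1, 1 with both guides, 0 between sgKeap1 and sgCul3, and 2 in sgNrf2. Papss2, a PAPS synthase, had 105, 177, 1547 and 1102 scaled reads in the sgGFP tumours by number, 55.3, 125 and 226 in sgCul3, and 171, 918 and 146 in sgKeap1, high in the same sgGFP tumours and in the same sgKeap1 tumour as Sult1a1 and Sult1d1. Control A had 401 and control B 2702, beside 351 (sgNrf2 A) and 220.3 (sgNrf2 B). Papss1, the other synthase, had 113 and 162 in the controls and 376 and 263 in sgNrf2, without overlap, a difference of 1.21 ± 0.35 on the log2 scale (limma adjusted p = 0.10).

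Among sulfate carriers, 2 rose in sgNrf2. Slc13a4, a sodium-sulfate cotransporter, had 17.3 (control A) and 17.7 (control B) scaled reads and 413 and 316 in the sgNrf2 tumours, higher by 4.29 ± 0.37 on the log2 scale (limma adjusted p = 0.024). Slc26a1, a sulfate and oxalate exchanger of the hepatocyte membrane, had 240.4 and 369.6 against 1527 and 1507 (2.34 ± 0.27, adjusted p = 0.034). Both sgNrf2 tumours were above both controls for each, and both calls were lost without either sgNrf2 tumour (adjusted p from 0.0969 to 0.203). Of 5 carriers tested these 2 rose and 3 did not pass.

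In sgCul3 Slc13a4 had 41.4, 40.8 and 25 scaled reads against 4.6 to 7.42 in sgGFP, with no overlap, and rose by 2.20 ± 0.43 on the log2 scale (limma adjusted p = 0.029). With the tumour number as a block, which pairs sgGFP and sgCul3 tumours 1 to 3, the value was 2.26 and did not pass (adjusted p = 0.063), and it was lost without sgGFP tumour 2, 3 or 4 or sgCul3 tumour 1 or 2 (adjusted p up to 0.138). In sgKeap1 it had 14.7, 8.11 and 23.1, also above the sgGFP range, and did not pass (1.01 ± 0.43, adjusted p = 0.15). Of 8 listed genes of cysteine and sulfide metabolism, not all of which lead to sulfate, limma called Got1 and Csad lower. Got1, an aminotransferase, was lower in sgCul3 (-1.36 ± 0.30, adjusted p = 0.045) and sgKeap1 (-1.40 ± 0.30, adjusted p = 0.020), and Csad in sgKeap1. The Got1 call in sgCul3 was lost with the block, by edgeR and without sgGFP tumour 2, 3 or 4 or sgCul3 tumour 1 or 2 (adjusted p up to 0.202 over the alternatives), and in sgKeap1 without sgGFP or sgKeap1 tumour 3 (up to 0.0909). That of Csad was lost without sgGFP tumour 1, 2 or 3 or sgKeap1 tumour 2 or 3 (up to 0.113 over the alternatives). In sgNrf2 Ethe1, a sulfur dioxygenase of mitochondria, was higher (1.20 ± 0.19, adjusted p = 0.044), a call lost with the block and without control B or either sgNrf2 tumour (adjusted p up to 0.372 over these).

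**Figure D5:**
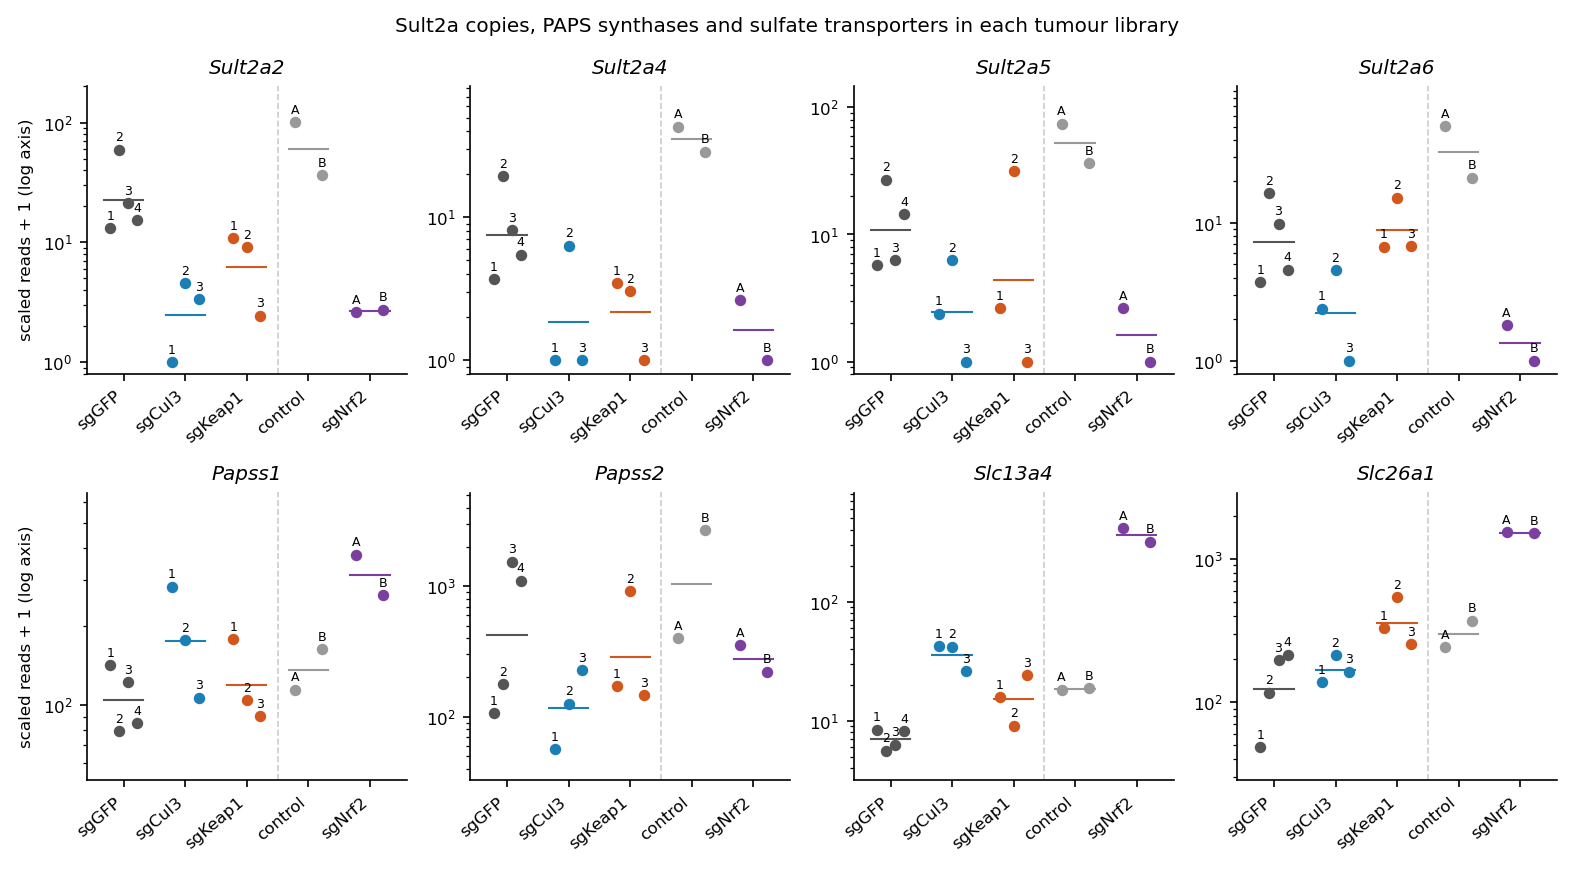
Scaled reads plus 1 (vertical axis, log scale) of 4 Sult2a copies, both PAPS synthases and 2 sulfate carriers in each library, with groups on the horizontal axis, tumour labels above the points and bars at the geometric mean. The groups right of the dashed line come from the separately scaled second table. The 4 Sult2a copies are lower and Slc13a4 and Slc26a1 higher in sgNrf2 than in the controls, and Papss2 is high in sgGFP tumours 3 and 4 and sgKeap1 tumour 2.

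Nuclear receptors that are known to act on sulfotransferase genes were called in few cases by limma. Of 12 listed, 11 were tested in the first table, where Ppara, the fatty acid receptor, was lower in sgCul3 (-1.60 ± 0.34, limma adjusted p = 0.042), a call lost by edgeR and without sgGFP tumour 2, 3 or 4 or sgCul3 tumour 1 or 2 (up to 0.162 over the alternatives), and 12 in the second, where Nr0b2, the bile acid responsive repressor SHP, had 693 and 1369 scaled reads in the controls and 9.72 and 19.2 in sgNrf2 and was called lower (adjusted p = 0.024, and up to 0.0802 without control B or sgNrf2 A). DESeq2 called Nr0b2, Nr1i2 and Ppara lower in sgCul3, and Ppara lower and Esr1 higher in sgKeap1. In sgNrf2 it called Nr0b2, Nr1i2 and Nr1i3 lower and Esr1 higher, where edgeR called Nr0b2 alone. Nr1i2 had 1453 and 1368 scaled reads in sgNrf2 against 2931 and 5324 in the controls. Nr1i3, the receptor CAR, had 924 and 685 against 1767 and 1941. In the first table Nr1i3 had 2775 scaled reads in sgKeap1 tumour 2, against 198 to 1089 elsewhere in that table. Of 7 target genes of such receptors Cyp1a2, a cytochrome P450, had 93.2, 4575 and 64.9 scaled reads in sgKeap1 and 38.7, 632 and 167 in sgCul3 against 3.37 to 17.7 in sgGFP, without overlap. It was called higher in sgKeap1 (4.88 ± 1.33, limma adjusted p = 0.048) and with both guides (4.42 ± 1.12, adjusted p = 0.039), and both calls were lost without any 1 sgGFP tumour, the first also without sgKeap1 tumour 2 or 3 and the second without sgCul3 tumour 2 (adjusted p up to 0.126 and 0.0857 over the alternatives). In sgNrf2 it had 391 and 112 against 9.70 and 22.8 in the controls and did not pass (adjusted p = 0.064). Of the same 7, Abcb11, the bile salt export pump, Cyp4a14 and Slc51b were lower in sgNrf2 and 4 did not pass. These 3 calls were lost without control B or either sgNrf2 tumour (adjusted p up to 0.218), those of Abcb11 and Cyp4a14 also by edgeR. Their relation to the sulfotransferase levels was not tested.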

How the data were processed

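Total RNA of mouse liver tumours was sequenced as 14 libraries in 2 gene tables. Per the labels and the submitters' processing notes, RNA was taken with a Qiagen kit, libraries were made with a TruSeq RNA kit, and mm10, Picard, HTSeq and DESeq were used, whose versions are not stated. The deposited signal is the HTSeq count divided by the authors' DESeq size factor. The first table has 1 added to every entry, which was removed for the levels printed and not for the test. Each value was a whole multiple of 1 read within 0.1 reads (100% of values in each library), so read counts were recovered from the deposited values. How reads that fit several genes were counted is not stated. The second table lists reads without a unique alignment and ambiguous reads apart from genes, and the first has no such entries. The second table has 4 entries for no gene, which were left out of the tests and of library sizes.

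The main test was limma 3.58.1 (trend, R 4.3.3), applied to log2(deposited value + 1) of genes averaging 10 or more, two-sided, with Benjamini-Hochberg adjustment over all genes. The 3 groups of the first table share 1 estimate of spread. Fold changes on this scale understate the change of low genes. edgeR 4.0.16 (quasi-likelihood) and DESeq2 1.42.0 were run on the recovered reads as alternatives, with other pseudocounts, filters, scalings, a replicate block and libraries left out. The script was tested on simulated data. Intervals on reads are exact 95% Poisson intervals and cover counting error only. Levels between genes are reads per kilobase of exon (GENCODE M21) relative to all reads on genes. Coding sequences were aligned with Biopython 1.88.

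Tumours with the same number deviated together between sgGFP and sgCul3 (correlations of 0.16, 0.18 and 0.31 over genes) but not between sgGFP and sgKeap1 (0.20, 0.04 and -0.09). Between sgCul3 and sgKeap1 the values were 0.24, 0.52 and 0.098, the last just under the 0.1 required of every pair. This pairing comes from the data, since the labels do not say what a number marks.

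The members and lists were chosen with earlier results of these data known. Named genes are the members, the listed genes that were called, those of PAPS supply, and for each tested member the 2 genes nearest in profile. Any other gene named was chosen after its values were seen, among them Sult1e1, A1bg, Slco1a1, Esr1, Cyp3a16, Slc22a26, Nr1i2, Nr1i3 and copies of Sult2a1 that were not called.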

Additional observations from a re-analysis of the deposited data

Results flagged for a closer look

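In the sgGFP group 19 genes were screened for a tumour far from the other 3, a screen that marks about 1 in 20 groups by chance. Sult3a1 was marked at 0.895 scaled reads in sgGFP tumour 4, which is 1 read, against 0 in the other 3 tumours. Bpnt1, which encodes an enzyme that breaks down the product of the sulfonation cofactor, was marked at 847 scaled reads in sgGFP tumour 4, against 1468 to 1580 in the others.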

How the results depend on the processing

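Over 30 values of members, 511 alternatives were run, and 464 kept the direction and the side of the threshold, 1 lost the call, 6 gained one and 40 changed sign. Where values changed sign the cause was not tested. The number of members called rose from 0 to 1 in sgKeap1 with edgeR and from 1 to 3 in sgNrf2 with DESeq2. With 1 library left out in the sgNrf2 comparison, its group keeps a lone sample. Sult2a1 was no longer called without sgNrf2 A, and without control A the log2 fold change of Sult1c2 was -1.03. A lone remaining sample is assumed there to vary like the other group. The adjusted p of Sult2a1 in sgNrf2 ranged from 5.15e-28 to 0.080 over its 13 alternatives, with log2 fold changes from -5.63 to -4.54. Over all genes the calls in sgNrf2 numbered 617, 465 with edgeR, 2639 with DESeq2 and 3 to 3383 with 1 library left out.

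Sult1c2 changed sign with edgeR and DESeq2 in sgCul3 (-0.11 and -0.12), in sgKeap1 (-0.13 and -0.13) and with both guides (-0.12 and -0.12), and with equal totals in sgKeap1 (-0.16) and with both guides (-0.016). With the replicate block Sult1a1 in sgKeap1 was 0.38 and Sult1d1 with both guides 0.21, and the block changed no call of a member. It moved the count over all genes in sgKeap1 from 1020 to 1778.

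With 1 library left out, these values crossed 0, given as the lowest and highest over those settings. In sgCul3 Sult1b1 ranged from -0.21 to 0.69 and Sult1c2 from -0.40 to 0.41. In sgKeap1 Sult1c2 ranged from -0.44 to 0.36, Sult1a1 from -0.69 to 0.38, Sult1d1 from -0.22 to 1.24 and Sult2a8 from -0.069 to 4.48. With both guides Sult1c2 ranged from -0.42 to 0.39 and Sult1d1 from -0.53 to 0.28. Between sgKeap1 and sgCul3 Sult1c2 ranged from -0.26 to 0.23, Sult2a1 from -0.25 to 2.60, Sult1b1 from -0.090 to 1.11 and Sult2a8 from -0.94 to 3.61. In sgNrf2 Sult1b1 ranged from -0.28 to 0.51, Sult1c2 from -1.03 to 0.17 and Sult2a8 from -0.91 to 0.18. With 2 to 4 tumours a group and at most 35 reads of Sult3a1 and 17 of Sult5a1 in a library, differences of these low genes were hard to detect.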

Other observations

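Sulfatases remove sulfate groups in lysosomes and elsewhere. Of the sulfatase genes listed, Arsg fell in sgKeap1 (log2 fold change -1.02, limma adjusted p = 0.045), a call lost without sgGFP tumour 2, 3 or 4 or any 1 sgKeap1 tumour (adjusted p up to 0.155). Arsb rose in sgNrf2 (log2 fold change 1.95, limma adjusted p = 0.031), a call lost without sgNrf2 A or without sgNrf2 B (adjusted p up to 0.238). Sult1e1, the estrogen sulfotransferase beside Sult1d1, had 3 reads in control A, 36 in control B and 0 in the 2 sgNrf2 libraries. Control A is itself at the floor of 3 reads, so any difference rests on control B, and no fold is given.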
